A study of Homo sapiens with 8 samples.

Results

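The respiratory chain subunits of SUDHL6 cells were followed as the 93 rows whose symbols name a subunit of complexes I to V, chosen by symbol alone, of 19709 genes in any of the 3 deposited tables. All 93 rows were in every table. Of these, 13 are encoded by the mitochondrial genome and 80 by the nucleus. The symbol rule also took in 3 pseudogenes (ATP5A1P5, ATP5G1P4 and ATP5HP4) and 2 genes that are not subunits (ATP5S and ATP5SL), so that counts for the nuclear genome refer to the other 75 rows, of which 36 belong to complex I, 4 to complex II, 9 to complex III, 11 to complex IV and 15 to complex V. NDUFA4 was counted with complex IV, where its protein is now placed.

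SUDHL6 is an established human diffuse large B-cell lymphoma line. RNA was sequenced from 8 libraries, 2 each after 18 h with 2.5 µM MS8815, MS8815N or EPZ-6438, or with the DMSO vehicle that served all 3 compounds. Per the labels, MS8815 is a PROTAC degrader of the histone methyltransferase EZH2, EPZ-6438 an inhibitor of its catalytic domain, and MS8815N an analog of MS8815 that is not a PROTAC. The labels speak of duplicates and not of separate cultures, so p-values reflect how far these libraries spread, and that spread may be technical.

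Complexes I to IV pass electrons from NADH and succinate to oxygen, and complexes I, III and IV pump protons out of the mitochondrial matrix. Complex V, the ATP synthase, makes ATP from the returning protons. Most subunits are nuclear genes, imported after translation in the cytosol, while the mitochondrial genome encodes hydrophobic core subunits of every complex except complex II. The mitochondrial genome is transcribed into long RNAs of both strands, which are cut at tRNAs into rRNAs and mRNAs, so its genes share precursors. Proliferating B-cell lymphomas are known to differ in how far they rely on oxidative phosphorylation.

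The MS8815 libraries stood apart from the other 6. Their estimated depth was 12.97 and 14.6 M reads, against 26.0 to 34.1 M reads elsewhere. The summed normalised count of 22 B-cell genes was 137800 and 139100 in MS8815 libraries, against 271800 and 273100 in DMSO libraries. Of the 22, 21 were called lower, where 22.4% of all genes were. The sum for 25 genes of adherent cells was 154000 and 154900 in MS8815 libraries and 28740 and 28870 in DMSO libraries. Of the 27 tested in the comparison of MS8815 with DMSO, 25 were called higher, where 24.5% of all genes were. In these bulk RNA data, fewer cells of a type and less RNA per cell cannot be told apart. For 8 RNAs without a poly(A) tail the sum was 533300 to 542600 in MS8815 libraries, against 30010 to 31420 in DMSO libraries. Of these 8, 6 were called higher, where 24.5% of all genes were. Markers of T and NK cells (3 genes) summed to 63.8 and 87.5 in MS8815 libraries, against 118 and 88.7 in DMSO libraries. Those of myeloid cells (4 genes) summed to 311 and 342 in MS8815 libraries, against 211 and 271 in DMSO libraries. Of the 4 myeloid genes 2 were called higher, where 24.5% of all genes were, and CD14, CSF1R and ITGAM were scarce in DMSO libraries. Limma called 0 of the 4 T and NK genes tested in that comparison. The labels name a pair of library kits without saying which library each served. The part of these differences in the MS8815 results below was not tested. No MS8815 result can be given without these libraries, because they are the whole group.

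The 13 mitochondrial genes lie close together, and 2 pairs overlap by several bases, while MT-ATP6 and MT-CO3 share only position 9207. The shared bases of the 2 pairs are shown because reads from them belong to either gene, so that the levels of both members of a pair are uncertain. MT-ATP8 and MT-ATP6, which encode membrane subunits of complex V, share 46 bases in capitals in the following stretch at chrM:8497-8602 (GRCh38, GENCODE 29, plus strand), and MT-ND4L and MT-ND4 of complex I share the 7 in capitals at chrM:10730-10796.
MT-ATP8 and MT-ATP6: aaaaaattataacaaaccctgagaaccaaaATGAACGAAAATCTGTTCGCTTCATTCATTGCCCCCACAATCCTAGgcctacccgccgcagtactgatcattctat
MT-ND4L and MT-ND4: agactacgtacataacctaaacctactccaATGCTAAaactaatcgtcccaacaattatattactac
The overlap made up 22.2% of MT-ATP8 and 2.36% of MT-ND4L. MT-ND6 is the gene of the 13 on the minus strand, and whether reads were counted by strand is not given in the sources used here, so its level is uncertain as well. Nuclear copies of mitochondrial genes are near-identical in sequence and can also take reads. They moved with the mRNAs, since 8 of 10 tested copies were called higher with MS8815, where 24.5% of all genes were. MTATP6P1, for example, had 16280 and 15920 normalised counts in MS8815 libraries, against 4499 and 4599 in DMSO libraries.

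With MS8815, all 13 mitochondrially encoded subunits were called higher than in DMSO, while on the authors' normalisation 53 of the 75 nuclear encoded subunits were called lower and 0 higher. A call is an adjusted p under 0.05 by limma, and 46.9% of all 18744 genes were called, 24.5% higher and 22.4% lower. The median log2 fold change was 1.65 over the mitochondrial members and -0.42 over the nuclear members, against 0.00 over all genes. A filter that kept only the upper 50% of genes (9372) gave a less distinct nuclear fall. The median of the kept genes was -0.19, and 43.0% of them were called lower and 18.7% higher. It kept 74 nuclear members, of which 54 were called lower, at a median of -0.42. These directions hold on the authors' normalisation. Scaling libraries to the B-cell genes instead moves nearly all genes alike, by 1.18 at the median, and 78.0% of all genes were then called higher. With it 74 nuclear members were called higher and 0 lower, at a median of 0.80, while all 13 mitochondrial members stayed higher, at a median of 2.87. Quantile normalisation gave 12 mitochondrial members higher and 1 lower, at a median of 1.78, and 5 nuclear members higher and 35 lower. The nuclear median was then -0.19, next to the all-gene median of -0.20.

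**Figure D1:**
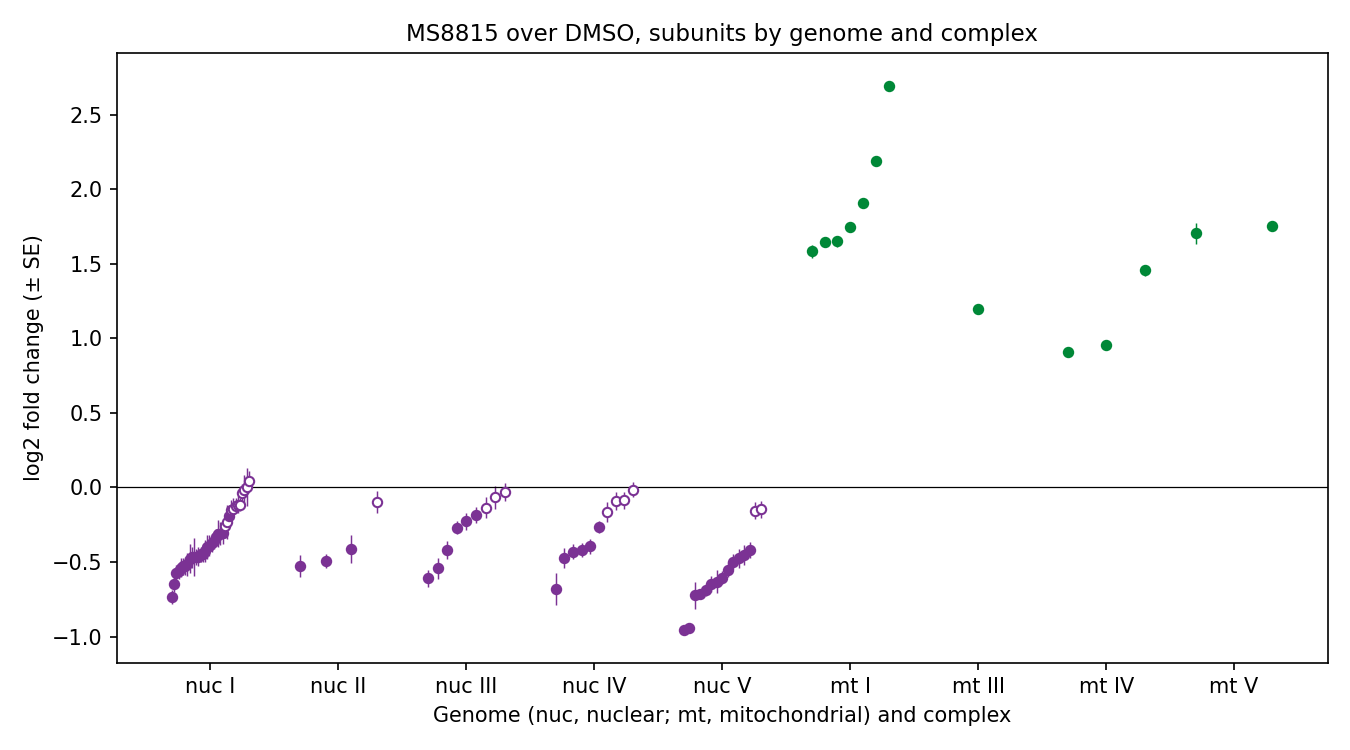
Log2 fold change of each subunit, MS8815 over DMSO, with its standard error (y axis), by genome and complex (x axis). Filled points were called by limma at an adjusted p under 0.05, and COX6B1, at 0.834 to 23.0 counts, is left out. All 13 mitochondrial members lie above 0 and nearly all nuclear members lie below it on the authors' normalisation, whereas 74 nuclear members are above 0 when scaled to B-cell genes.

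The ratio of mitochondrial to nuclear counts within a library does not depend on that scaling. A share of the normalised count depends on the library's total. It falls when other RNAs, such as the mitochondrial rRNAs given below, take more of that total. The 13 mitochondrial mRNAs took 3.98% and 4.21% of the normalised count in MS8815 libraries, against 1.53% and 1.58% in DMSO libraries. The 75 nuclear subunits took 0.926% and 0.948% in MS8815 libraries and 1.33% and 1.36% in DMSO libraries. The mitochondrial mRNAs therefore outweighed the nuclear ones 4.30 and 4.44 times in MS8815 libraries, against 1.15 and 1.16 times in DMSO libraries. MS8815N libraries, at 1.36 and 1.32 times, lay above the DMSO values, and EPZ-6438 libraries, at 1.12 and 1.16 times, lay around them. Per kilobase of transcript, the median mitochondrial mRNA stood 28.0 and 30.4 times above the median nuclear subunit in MS8815 libraries, against 6.05 and 6.68 times in DMSO libraries.

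The mitochondrial rRNAs, which form the ribosome that translates these mRNAs, differed by more. MT-RNR1 and MT-RNR2 together took 6.0% and 6.26% of the normalised count in MS8815 libraries, against 0.367% and 0.369% in DMSO libraries. MT-RNR1 (12S) had 511100 and 518600 normalised counts in MS8815 libraries, against 17120 and 16130 in DMSO libraries, higher by 4.95 ± 0.03 on the log2 scale (SE, adjusted p = 3.7e-07). MT-RNR2 (16S) had 1497000 and 1516000 in MS8815 libraries and 99940 and 102000 in DMSO libraries, higher by 3.90 ± 0.02 on the log2 scale (adjusted p = 2e-06). The ratio of rRNA to mitochondrial mRNA was 1.51 and 1.49 in MS8815 libraries, against 0.240 and 0.234 in DMSO libraries. It moved with the RNAs without a poly(A) tail given above, whose part in this result was not tested.

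**Figure D2:**
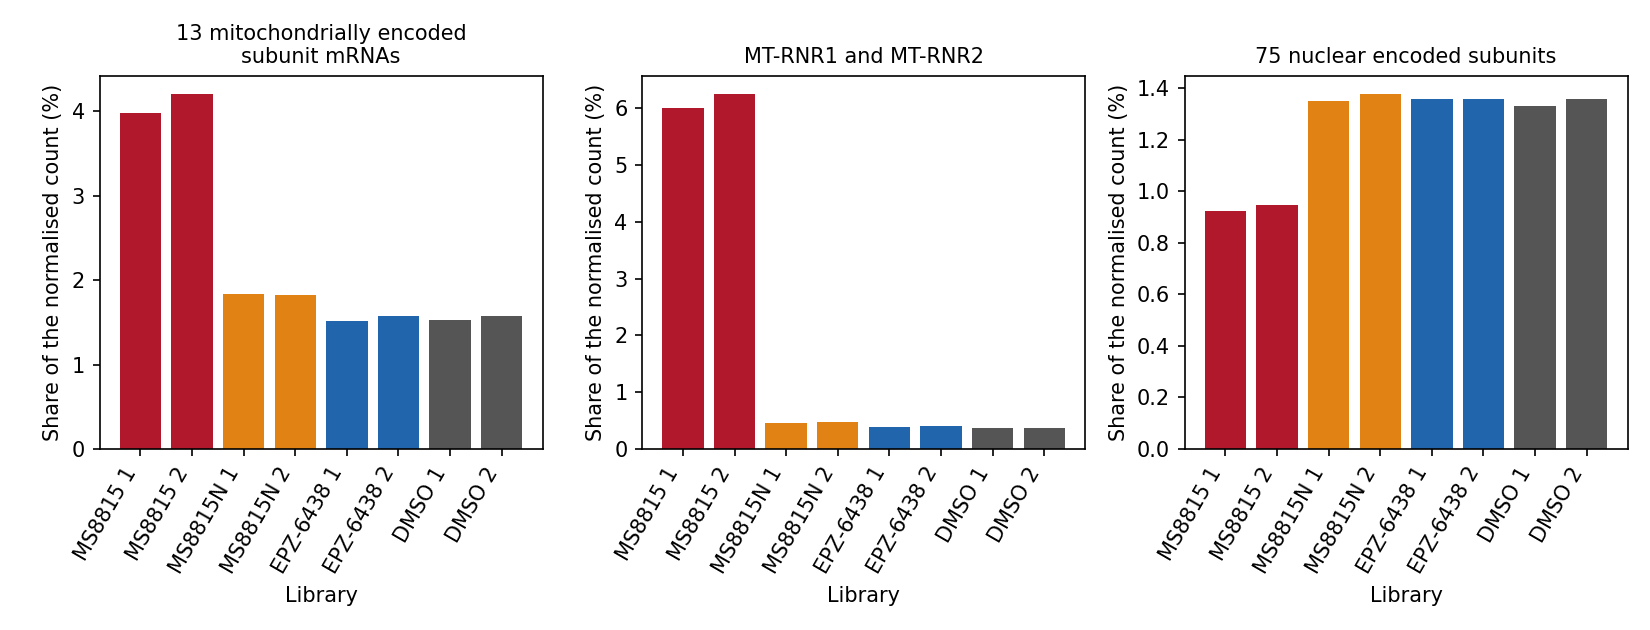
Share of each library's normalised count (y axes, %) held by the 13 mitochondrially encoded subunit mRNAs, the mitochondrial rRNAs MT-RNR1 and MT-RNR2, and the 75 nuclear encoded subunits, in each of the 8 libraries (x axes). The MS8815 libraries are highest for both mitochondrial classes, at up to 4.21% and 6.26%, and lowest for the nuclear subunits, at 0.926% and 0.948%.

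The mitochondrial mRNAs of complex I covered the widest range. MT-ND2 (chrM:4470-5511), a membrane subunit of the proton-pumping arm, had 122300 and 127300 normalised counts in MS8815 libraries, against 18890 and 19690 in DMSO libraries. Its log2 fold change of 2.69 ± 0.03 was the largest of the 13 (adjusted p = 2.5e-06). MT-ND1 (chrM:3307-4262), which helps form the quinone-binding site, had 89690 and 92330 in MS8815 libraries, against 19520 and 20310 in DMSO libraries, a log2 fold change of 2.19 ± 0.03. These 2 genes are the mRNA genes nearest downstream of the rRNA genes on the map.

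The other complex I members rose by 1.58 to 1.91 on the log2 scale, and in each the MS8815 libraries did not overlap the DMSO libraries. MT-ND5, a proton-pumping subunit, had 97520 and 102600 normalised counts in MS8815 libraries, against 26770 and 26570 in DMSO libraries. MT-ND4, a related pump, had 190300 and 196000 in MS8815 libraries and 61130 and 62480 in DMSO libraries. MT-ND3, a small subunit near the quinone site, had 26640 and 27010 in MS8815 libraries and 8713 and 9198 in DMSO libraries, the smallest change among the complex I members at 1.58 ± 0.04. MT-ND4L and MT-ND6, both small membrane subunits, had log2 fold changes of 1.65 ± 0.04 and 1.74 ± 0.03.

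MT-CYB, the cytochrome b of complex III, had 96060 and 99810 normalised counts in MS8815 libraries, against 41900 and 43360 in DMSO libraries, a log2 fold change of 1.20 ± 0.03. Of the catalytic subunits of complex IV, MT-CO1 had 288600 and 293500 in MS8815 libraries and 148200 and 152400 in DMSO libraries. Its log2 fold change was 0.95 ± 0.02, with an adjusted p of 2.5e-05, but quantile normalisation turned it to -0.77, and the cause was not tested. MT-CO3 had the smallest fold change of the 13, at 0.91 ± 0.03, from 144000 and 148700 counts in MS8815 libraries and 76000 and 79970 in DMSO libraries. MT-CO2, which receives electrons from cytochrome c, stood apart from these with 86420 and 87830 in MS8815 libraries, against 30840 and 32700 in DMSO libraries, a log2 fold change of 1.46 ± 0.04. The complex V genes MT-ATP6 and MT-ATP8 rose by 1.76 ± 0.03 and 1.70 ± 0.07.

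**Figure D3:**
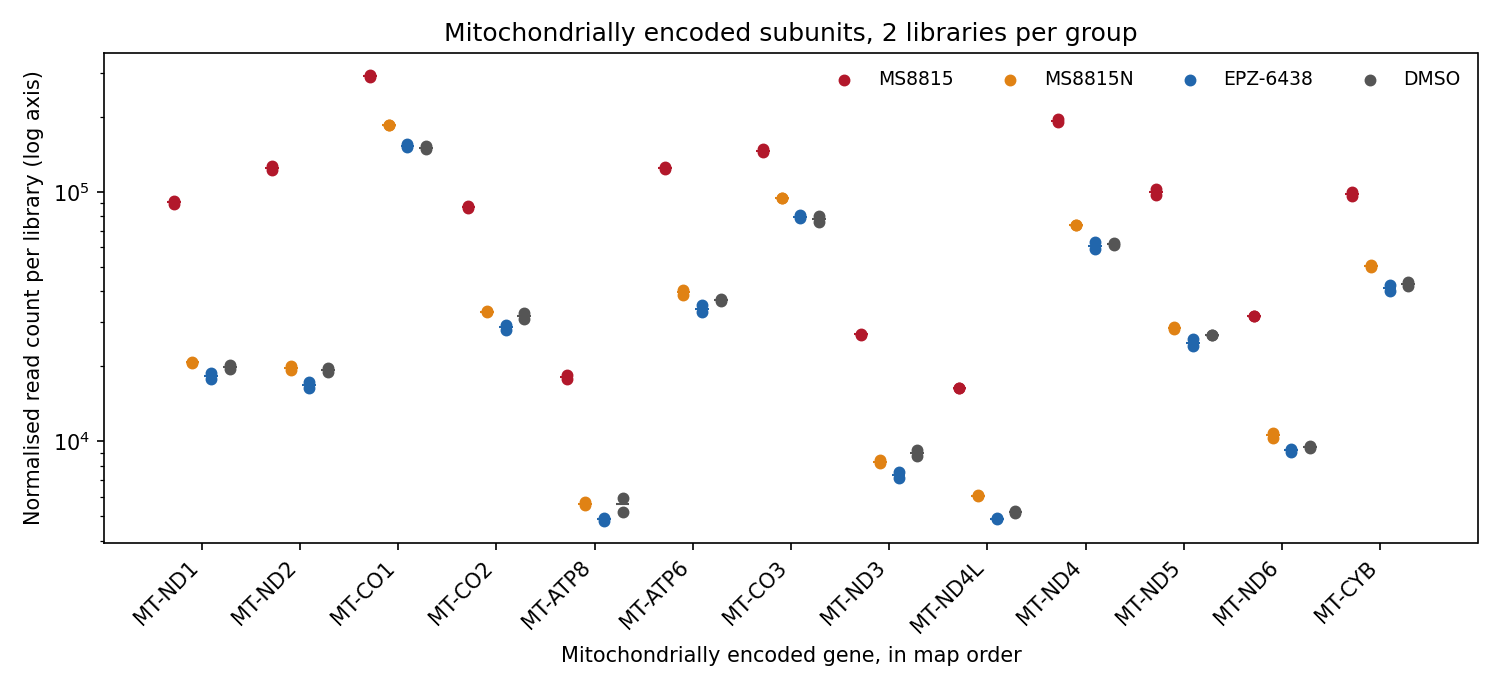
Normalised read counts of the 13 mitochondrially encoded subunit mRNAs (y axis, log scale) in map order (x axis), with 1 point per library, 2 libraries per group and a line at the mean. The MS8815 points lie above all others for every gene, and the MS8815N points lie above both DMSO points for 10 of 13.

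The order of the 13 mRNAs changed as well. Set against MT-CO1 in the same library, MT-ND2 stood at 42.4 and 43.4 per 100 MT-CO1 counts in MS8815 libraries, against 12.8 and 12.9 in DMSO libraries, 3.34 times as high. MT-ND1 was 2.36 times as high relative to MT-CO1 as in DMSO, MT-ND5 1.94 times and MT-CYB 1.19 times. MT-CO3 was the exception, at 49.9 and 50.7 per 100 MT-CO1 counts in MS8815 libraries, against 51.3 and 52.5 in DMSO libraries. These ratios are free of any scaling of a whole library, and with 2 libraries a group they are given without a test. Genes with a high level per kilobase in DMSO had the smaller fold changes, with Pearson's r = -0.75 and Spearman's rho = -0.67 across the 13 genes. The 13 share precursors, and the DMSO level enters both axes, so this is a description of these libraries.

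With EPZ-6438, 0 of the 13 mitochondrial and 0 of the 75 nuclear subunits were called by limma, where 0.0328% of all 18320 genes were called. At an unadjusted p under 0.05 the counts were 8 and 10, where 16.8% of all genes were. The median log2 fold change was -0.10 over the mitochondrial members and -0.01 over the nuclear members, against 0.01 over all genes. Both EPZ-6438 libraries were below both DMSO libraries for 9 of the 13, where 24.8% of the genes in all tables were. MT-ND3 came nearest to a call, at 7161 and 7554 normalised counts in EPZ-6438 libraries against 8713 and 9198 in DMSO libraries, with the fold at -0.28 ± 0.04 on the log2 scale (adjusted p = 0.070). Among nuclear members NDUFS1, the largest iron-sulphur subunit of complex I, came nearest, with 5001 and 5328 in EPZ-6438 libraries and 6091 and 6323 in DMSO libraries (log2 fold change -0.27 ± 0.04, adjusted p = 0.081).

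With MS8815N, 4 of the 13 mitochondrial mRNAs were called higher and 0 of the 75 nuclear subunits were called by limma. An unadjusted p under 0.05 was found for 10 of the 75 nuclear members and for 15.7% of all genes. Over all 18398 genes 0.288% were called higher and 0.533% in either direction. MT-CO1 had 185400 in each MS8815N library, against 148200 and 152400 in DMSO libraries (log2 fold change 0.30 ± 0.02, adjusted p = 0.0044). MT-CO3 had 94120 and 94920 in MS8815N libraries and 76000 and 79970 in DMSO libraries (log2 fold change 0.28 ± 0.02, adjusted p = 0.015). The other called genes were MT-ND4 at 0.25 ± 0.02 (adjusted p = 0.0076) and MT-CYB at 0.24 ± 0.02 (adjusted p = 0.016). Both MS8815N libraries lay above both DMSO libraries for 10 of the 13, where 23.0% of the genes in all tables did, and MT-ND3, at 8177 and 8389 in MS8815N libraries against 8713 and 9198 in DMSO libraries, lay below.

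With 1 library fewer these calls were mostly lost, as were calls over all genes, while the fold changes stayed close. Leaving out either MS8815N library left 0 calls among members and 0 over all genes. Leaving out DMSO replicate 1 left 0 among members and 2 over all genes, and leaving out DMSO replicate 2 left 2 and 6, against 98 over all genes with every library. Over these fits the log2 fold change was 0.28 to 0.32 for MT-CO1, 0.24 to 0.31 for MT-CO3, 0.24 to 0.27 for MT-ND4 and 0.22 to 0.26 for MT-CYB. The mitochondrial rRNAs were also called higher, MT-RNR1 at 0.36 ± 0.04 (adjusted p = 0.033) and MT-RNR2 at 0.34 ± 0.02 (adjusted p = 0.0044). The summed count of RNAs without a poly(A) tail was 43510 to 44200 in MS8815N libraries, against 30010 to 31420 in DMSO libraries, and that of adherent-cell genes was 33130 to 33950 in MS8815N libraries, against 28740 to 28870 in DMSO libraries. Their part in the result was not tested. Among nuclear members, UQCRC2, a core subunit of complex III, came nearest to a call, with 5939 and 5584 in MS8815N libraries and 7015 and 6697 in DMSO libraries (log2 fold change -0.25 ± 0.04, adjusted p = 0.069).

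**Figure D4:**
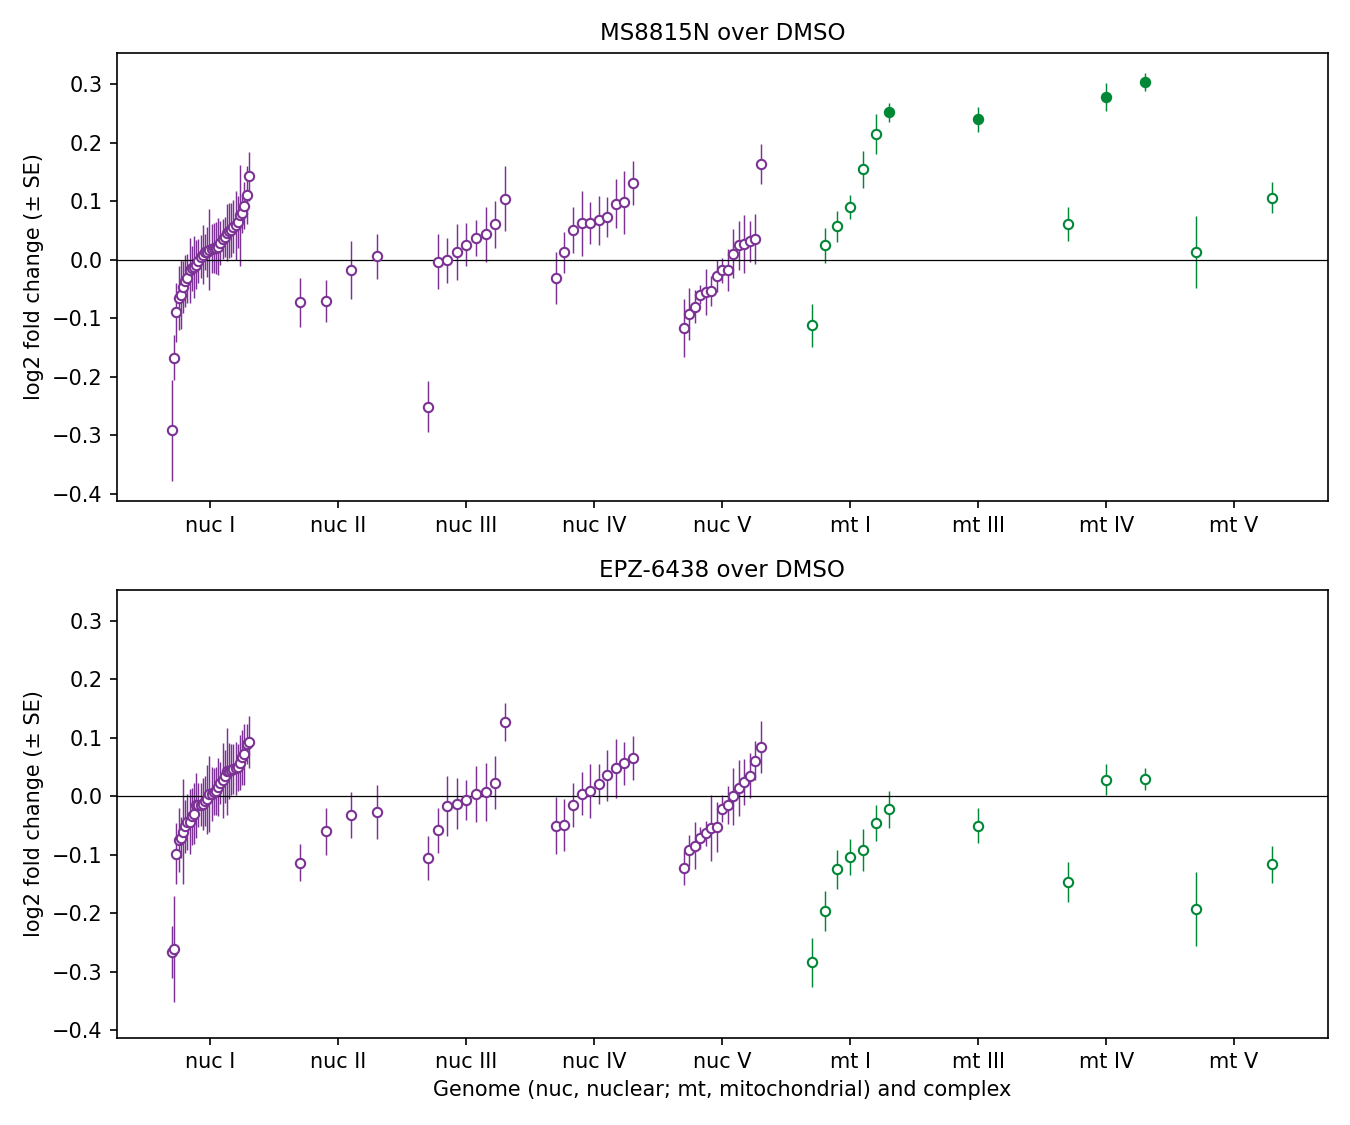
Log2 fold change with its standard error (y axes) of each subunit over DMSO with MS8815N (upper panel) and EPZ-6438 (lower panel), by genome and complex (x axis), without COX6B1. Filled points were called by limma, and these are 4 mitochondrial mRNAs with MS8815N and 0 members with EPZ-6438.

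Ratios to MT-CO1 were lower than in DMSO for most mRNAs with both of these compounds. MT-ND3 stood at 4.41 and 4.53 per 100 MT-CO1 counts in MS8815N libraries and 4.74 and 4.85 in EPZ-6438 libraries, against 5.88 and 6.04 in DMSO libraries. For MT-ND2 the values were 10.8 and 10.4 with MS8815N and 10.8 and 11.1 with EPZ-6438, against 12.8 and 12.9 in DMSO libraries. MT-CO3 differed little, at 0.982 times the DMSO ratio with MS8815N and 0.999 times with EPZ-6438. Both compounds were set against the same DMSO libraries, so their values are not independent.

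**Figure D5:**
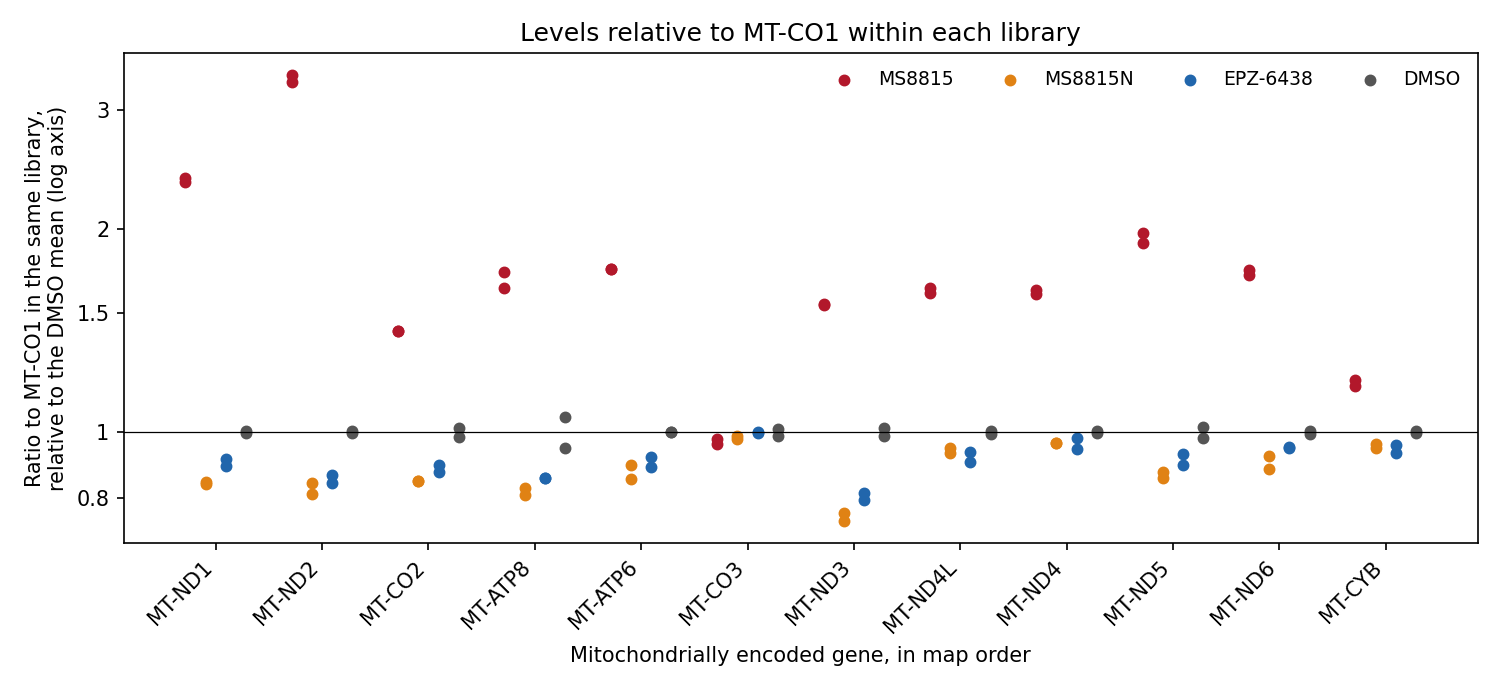
Ratio of each mitochondrial mRNA to MT-CO1 in the same library, relative to the mean of the DMSO libraries (y axis, log scale), in map order (x axis), with 1 point per library. With MS8815 the ratio is highest for MT-ND2, at 3.34 times DMSO, and is at 0.969 times for MT-CO3, while it is lowest for MT-ND3 with the other compounds, at 0.750 times with MS8815N and 0.805 times with EPZ-6438.

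At the shared dose and time, 3 pairs of compounds were compared in a fit of all 8 libraries. MS8815 was called higher than EPZ-6438 for all 13 mitochondrial mRNAs, with log2 differences of 0.88 to 2.89 and a median of 1.79, and lower for 61 of 75 nuclear subunits, where 50.6% of all 17467 genes were called, 24.2% higher and 26.3% lower. Against MS8815N, its analog that is not a PROTAC, all 13 were higher by 0.63 to 2.67, with a median of 1.59, and 63 of 75 nuclear subunits were lower, again with 50.6% of all genes called, 24.2% higher and 26.3% lower. For MT-ND2 the log2 difference was 2.89 (95% interval 2.81 to 2.97) from EPZ-6438 and 2.67 (2.59 to 2.75) from MS8815N. In both comparisons the nuclear direction turned on scaling to B-cell genes, with 74 members then called higher, where 78.5% of all genes were over EPZ-6438 and 78.8% over MS8815N. Quantile normalisation turned MT-CO1 in both, leaving 12 mitochondrial mRNAs higher and 1 lower than with EPZ-6438, and 11 higher and 1 lower than with MS8815N.

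MS8815N and EPZ-6438 differed far less. Of the 13 mitochondrial mRNAs, 5 were called higher with MS8815N, where 0.172% of all 17467 genes were called, 0.166% higher and 0.00573% lower. MT-ND4L had 6107 and 6010 normalised counts in MS8815N libraries and 4915 and 4879 in EPZ-6438 libraries, a log2 difference of 0.31 (95% interval 0.24 to 0.38, adjusted p = 0.012). MT-CYB differed by 0.29 (0.22 to 0.36), MT-ND4 by 0.27 (0.21 to 0.34), MT-CO1 by 0.27 (0.23 to 0.31) and MT-CO3 by 0.25 (0.19 to 0.31). All 13 estimates were above 0. The call count was 1 to 5 when single libraries were left out, and 0 when scaled to B-cell genes. The median of the 13 was 0.22, and it was 0.18 to 0.26 with single libraries left out and 0.26 when scaled to B-cell genes. No nuclear member was called by limma, at 4 with an unadjusted p under 0.05 (6.13% of all genes), and COX6C came nearest, at 4785 and 4918 in MS8815N libraries and 4356 and 4410 in EPZ-6438 libraries, a log2 difference of 0.15 (95% interval 0.06 to 0.24, adjusted p = 0.46).

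Nuclear subunit genes are known targets of NRF1, of ETS-family factors such as GABPA, of YY1 and of CREB. RefSeq promoters on GRCh38.p14, 250 bases before to 50 after the start, were matched for 61 of the 75, and both strands were searched for 4 motifs. The NRF1 core GCATGCGC was in 14 promoters (23.0%), against 3.68% of all 27305 genes with a promoter entry. The ETS core CCGGAAGT was in 11 (18.0%, against 4.95%), the YY1 core AAGATGGC in 12 (19.7%, against 3.52%) and the CRE TGACGTCA in 5 (8.20%, against 2.25%). A gene counted if any of its promoter windows held the motif, and the 27305 genes were not matched to the members in level or kind. A match is a description of the letters and not of binding. The promoters of COX5B, SDHB and SDHD are shown because each holds 3 matches, which stand in capitals, and because all 3 genes were called lower with MS8815 on the authors' normalisation. They lie at chr2:97645812-97646111 (plus strand), chr1:17053983-17054282 (minus strand) and chr11:112086623-112086922 (plus strand).
COX5B: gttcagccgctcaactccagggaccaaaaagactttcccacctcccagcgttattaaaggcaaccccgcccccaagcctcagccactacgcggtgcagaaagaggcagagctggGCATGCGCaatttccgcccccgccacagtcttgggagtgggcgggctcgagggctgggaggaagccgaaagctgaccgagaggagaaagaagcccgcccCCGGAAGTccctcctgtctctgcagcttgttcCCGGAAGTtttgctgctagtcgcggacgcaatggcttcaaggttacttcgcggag
SDHB: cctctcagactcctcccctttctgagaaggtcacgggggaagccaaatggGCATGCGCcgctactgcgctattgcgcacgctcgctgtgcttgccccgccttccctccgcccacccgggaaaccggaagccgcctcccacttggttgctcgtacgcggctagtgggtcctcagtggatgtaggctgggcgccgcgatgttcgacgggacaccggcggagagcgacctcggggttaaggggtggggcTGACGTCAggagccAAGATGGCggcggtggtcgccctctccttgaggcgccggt
SDHD: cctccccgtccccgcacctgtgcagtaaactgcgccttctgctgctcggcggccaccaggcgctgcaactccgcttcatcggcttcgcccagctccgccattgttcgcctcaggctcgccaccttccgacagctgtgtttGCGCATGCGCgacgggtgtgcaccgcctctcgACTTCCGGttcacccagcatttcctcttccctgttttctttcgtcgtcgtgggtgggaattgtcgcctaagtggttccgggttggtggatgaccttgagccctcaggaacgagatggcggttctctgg
In COX5B the capitals are the NRF1 core and then the ETS core at a pair of places. In SDHB they are the NRF1 core, the CRE and the YY1 core. In SDHD the first run holds the NRF1 core on both strands, overlapping, and the second is the ETS core on the other strand. With MS8815, 13 of the 14 members with an NRF1 core were called lower (median log2 fold change -0.46), and 32 of the 47 without it (median -0.42). For the ETS core the counts were 6 of 11 with it (median -0.26) and 39 of 50 without it (median -0.45). For the YY1 core they were 10 of 12 (median -0.46) and 35 of 49 (median -0.43). For the CRE they were 4 of 5 (median -0.48) and 41 of 56 (median -0.43). Of all genes 22.4% were called lower, and of the upper 50% of genes 43.0% were. The counts by motif hold on the authors' normalisation, since 74 nuclear members were called higher when scaled to B-cell genes.

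The nuclear subunits of complex V fell the most with MS8815 on the authors' normalisation, with 13 of 15 called lower and a median log2 fold change of -0.60. In that comparison 22.4% of all genes and 43.0% of the upper 50% of genes were called lower. ATP5B (ATP5F1B, chr12:56638175-56646068), the catalytic beta subunit, was the most abundant nuclear member. It had 25720 and 26280 normalised counts in MS8815 libraries, against 50050 and 49700 in DMSO libraries, which is -0.94 ± 0.03 on the log2 scale (adjusted p = 1.2e-05). ATP5G3 (ATP5MC3), one of the genes for the proton-carrying c ring, had 11940 and 12090 in MS8815 libraries and 22930 and 23640 in DMSO libraries, the lowest fold change among members above the floor of counts at -0.95 ± 0.03. ATP5A1 (ATP5F1A), the alpha subunit of the catalytic head, had 15320 and 16000 in MS8815 libraries, against 25470 and 25900 in DMSO libraries (-0.71 ± 0.04). All 5 subunits of the F1 part (ATP5A1, ATP5B, ATP5C1, ATP5D and ATP5E), which holds the head, and all 3 c-ring genes were called lower. ATP5H, of the peripheral stalk, was not called, at 3119 and 3206 in MS8815 libraries and 3430 and 3574 in DMSO libraries (-0.15 ± 0.06, adjusted p = 0.079).

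In complex I, on the same normalisation, 25 of 36 nuclear subunits were called lower with MS8815, at a median of -0.38. The shares called lower were 22.4% of all genes and 43.0% of the upper 50% of genes. Of the 7 core subunits, those conserved from bacteria, 5 were called, at a median of -0.56, and of the 29 accessory subunits 20, at a median of -0.36. NDUFS1 had 3724 and 3735 normalised counts in MS8815 libraries, against 6091 and 6323 in DMSO libraries, which is -0.73 ± 0.05 on the log2 scale (adjusted p = 0.00015). NDUFV1, which binds NADH, had 5069 and 4672 in MS8815 libraries and 7186 and 7323 in DMSO libraries (-0.58 ± 0.06). NDUFB11, an accessory membrane subunit on the X chromosome, had 4971 and 4652 in MS8815 libraries and 6511 and 6776 in DMSO libraries (-0.47 ± 0.05). At the other end, NDUFS5 overlapped between the groups, at 4078 and 3987 in MS8815 libraries and 3753 and 4070 in DMSO libraries (0.04 ± 0.06, adjusted p = 0.59).

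Complex II, which is also the succinate dehydrogenase of the TCA cycle and has no mitochondrially encoded subunit, had 3 of 4 genes called lower on that normalisation. Called lower were 22.4% of all genes and 43.0% of the upper 50% of genes. SDHA, the flavoprotein, had 4975 and 5200 normalised counts in MS8815 libraries, against 7131 and 7202 in DMSO libraries (-0.49 ± 0.05). SDHB, the iron-sulphur subunit, had 2672 and 2427 in MS8815 libraries and 3568 and 3778 in DMSO libraries (-0.53 ± 0.07). SDHC, a membrane anchor, was not called, at 4292 and 3760 in MS8815 libraries and 4363 and 4232 in DMSO libraries (-0.10 ± 0.08, adjusted p = 0.34).

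In complex III 6 of 9 were called lower on the authors' normalisation, at a median of -0.23. Beside this, 22.4% of all genes and 43.0% of the upper 50% of genes were called lower. UQCRFS1, the Rieske iron-sulphur protein, had 2835 and 2968 normalised counts in MS8815 libraries, against 4374 and 4477 in DMSO libraries (-0.61 ± 0.06). UQCRC2 had 5011 and 4413 in MS8815 libraries and 7015 and 6697 in DMSO libraries (-0.54 ± 0.07). CYC1, cytochrome c1, had 6155 and 6009 in MS8815 libraries and 7246 and 7413 in DMSO libraries (-0.27 ± 0.04, adjusted p = 0.0036), and quantile normalisation brought it to 0.03. UQCR11, a small subunit, was not called, at -0.03 ± 0.06.

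Complex IV had 6 of 11 (54.5%) called lower on the authors' normalisation, at a median of -0.40. This share lay nearer to the 43.0% of the upper 50% of genes called lower than to the 22.4% of all genes. COX4I1, a regulatory subunit, had 8014 and 7771 normalised counts in MS8815 libraries, against 10310 and 10810 in DMSO libraries (-0.42 ± 0.04). COX6A1 had 7172 and 6759 in MS8815 libraries and 8937 and 9378 in DMSO libraries (-0.39 ± 0.05). COX6C was not called, with 4311 and 4454 in MS8815 libraries and 4383 and 4472 in DMSO libraries (-0.01 ± 0.05, adjusted p = 0.83). COX6B1 had from 0.834 to 23.0 counts in every library and gave no usable fold change.

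Across the 75 nuclear members, both MS8815 libraries were below both DMSO libraries for 67 and the groups overlapped for 8, where 38.5% of the genes in all tables were below. The count of calls was 36 without DMSO replicate 1 and 30 without DMSO replicate 2, while calls over all genes were 3657 and 3583, against 8782 with every library. The nuclear median was -0.44 and -0.39 in these fits, against -0.42. The rows outside the 75 were not called. ATP5SL had 1598 and 1521 normalised counts in MS8815 libraries and 1420 and 1489 in DMSO libraries, ATP5S had 267 and 557 in MS8815 libraries and 478 and 531 in DMSO libraries, and the 3 pseudogenes had 2.02 to 20.4 counts.

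Genes that build and serve the chain were mostly lower with MS8815 on the authors' normalisation, and mostly higher when scaled to B-cell genes. On the authors' normalisation 22.4% of all genes were called lower and 24.5% higher, and 43.0% of the upper 50% of genes were lower. Of 48 assembly factors, 28 were called lower and 1 higher, at a median of -0.37. NDUFAF5, a complex I assembly factor, had 232 and 217 normalised counts in MS8815 libraries, against 557 and 504 in DMSO libraries. Of 78 mitochondrial ribosomal proteins, 57 were lower and 0 higher (median -0.39), such as MRPL12 at 3759 and 3675 in MS8815 libraries and 6190 and 6410 in DMSO libraries. Of 17 genes of pyruvate dehydrogenase and the TCA cycle, 15 were lower and 1 higher (median -0.46), among them PDHA1 with 5706 and 5303 in MS8815 libraries and 10990 and 10700 in DMSO libraries. With MS8815N and EPZ-6438 limma called 0 genes of these lists. At an unadjusted p under 0.05 there were 4 assembly factors, 5 ribosomal proteins and 6 TCA cycle genes with MS8815N, where 15.7% of all genes were. With EPZ-6438 there were 5 assembly factors, 12 ribosomal proteins and 6 TCA cycle genes, where 16.8% of all genes were. Scaled to B-cell genes, 46 of the 48 assembly factors, 77 of the 78 ribosomal proteins and 16 of the 17 TCA cycle genes were called higher with MS8815, where 78.0% of all genes were.

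The machinery that copies and transcribes mitochondrial DNA had 20 of 32 genes called lower and 2 higher on the authors' normalisation, at a median of -0.45. On it, 22.4% of all genes were called lower and 24.5% higher, and 43.0% of the upper 50% of genes were lower. All 32 were higher when scaled to B-cell genes, where 78.0% of all genes were. TFAM, which packages mitochondrial DNA and starts its transcription, had 5072 and 5090 normalised counts in MS8815 libraries, against 8724 and 9158 in DMSO libraries, which is -0.81 ± 0.05 on the log2 scale (adjusted p = 9.6e-05). REXO2, an exonuclease of short mitochondrial RNA, had 2439 and 2498 in MS8815 libraries and 1518 and 1483 in DMSO libraries (0.72 ± 0.07, adjusted p = 0.00047). Of 10 regulators of nuclear respiratory genes, 6 were lower and 1 higher, beside the same shares of all genes. All 10 were higher when scaled to B-cell genes, where 78.0% of all genes were. GABPA had 1758 and 1585 in MS8815 libraries and 2304 and 2334 in DMSO libraries. The one that was higher, PPARGC1A, was scarce, at 19.0 and 38.3 in MS8815 libraries and 2.16 and 0.528 in DMSO libraries. Of tissue isoforms and paralogs of subunits, limma called 0 of the 3 tested with MS8815, and 1 had an unadjusted p under 0.05, as did 53.7% of all genes.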

How the data were processed

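RNA sequencing of 8 SUDHL6 libraries was analysed from 3 tables, each with the libraries of 1 compound and the same 2 DMSO libraries. The deposited values are on a log2-type scale, which the table names give as DESeq2's variance-stabilising transform (vst) by the authors. Alignment and counting tools in the submitters' processing notes are STAR 2.4.2 and Salmon, on GRCh38. Whether reads were counted by strand is not given in the sources used here. The transform was inverted in closed form to the normalised read count, because differences on the deposited scale are not fold changes. The DMSO libraries of different tables were then apart by a constant for each gene and each library (largest deviation 7e-11 log2 over 17219 genes), which put all 8 libraries on the scale of the MS8815N table for 17467 genes. For 238 genes the constant came from 1 DMSO library and for 10 from the median. Depths were estimated from low values, of which 45.2% to 65.6% lay within 0.02 of whole multiples of 1 read (4% by chance).

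Each compound was compared with DMSO in its own table on the deposited values with limma 3.58.1 under R 4.3.3, using a variance trend (2 residual degrees of freedom), with two-sided p-values adjusted by Benjamini-Hochberg over all genes and a threshold of 0.05. Fold changes and SEs came from limma on log2(normalised count + 1), which understates changes of low genes. Compounds were compared with each other on all 8 joined libraries (4 residual degrees of freedom). The scripts were tested on simulated data. No filter on low values was applied. Lengths per kilobase and coordinates are those of GENCODE 29, which may differ from the gene model of the tables. Named members were the 13 mitochondrial genes and, per complex, the 2 most abundant nuclear members in DMSO and those with the lowest and highest fold change with MS8815. Members called or nearest to a call elsewhere were named too. The rule for the other lists was the 3 genes of smallest p, but only some list genes are given, as examples. MT-RNR1, the nuclear copies and the 3 genes with printed promoters were named beside results. The members and lists were chosen with earlier results of these data known. Alternatives covered scaling, pseudocount, filter, variance model, replicate block and each library left out.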

Additional observations from a re-analysis of the deposited data

How the results depend on the processing

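Of 1479 values of 32 named members under alternatives, 1357 kept direction and side of the threshold, 57 lost and 25 gained a call, 18 moved and 22 reversed; of the 13 mitochondrial genes in MS8815 over DMSO, 181 values kept both and 1 reversed. Scaling to B-cell genes gave 74 nuclear members higher in each of the 3 comparisons of MS8815, with log2 fold changes over DMSO of 0.75 (NDUFB11), 0.64 (NDUFV1), 0.48 (NDUFS1), 1.12 (SDHC), 0.72 (SDHA), 0.69 (SDHB), 0.67 (UQCRC2), 0.95 (CYC1), 0.61 (UQCRFS1), 1.19 (UQCR11), 0.82 (COX6A1), 0.80 (COX4I1), 1.20 (COX6C), 0.50 (ATP5A1), 0.28 (ATP5B), 0.26 (ATP5G3) and 1.07 (ATP5H); this scaling moves the median of all genes by 1.18 by construction. Quantile normalisation turned MT-CO1 to -0.77 over DMSO, and to -0.66 over EPZ-6438 and over MS8815N, and CYC1 to 0.029 and COX6C to 0.23; it left 12 mitochondrial members higher and 1 lower, and 5 nuclear members higher and 35 lower. The cause was not tested.

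Leaving out single libraries gave 30 to 54 nuclear calls for MS8815 over DMSO, 0 to 2 mitochondrial calls for MS8815N over DMSO, and 1 to 5 for MS8815N over EPZ-6438; a lone library is then assumed to vary like the other groups. With EPZ-6438 over DMSO, removing the lower 50% of genes gave 2 mitochondrial and 1 nuclear call, where 3.19% of all genes were called. A fit without trend gave 1 and 1, where 0.922% of all genes were called. With MS8815N over DMSO the nuclear calls became 2 with the lower 50% removed, 1 without trend and 2 with the replicate block. Of all genes 4.15%, 1.37% and 1.92% were called in these fits, in that order. MS8815N over EPZ-6438 had 2 mitochondrial calls under quantile normalisation, 0 scaled to B-cell genes and 2 scaled to the total without mitochondrial genes. It had 8 with the lower 50% removed and 0 without trend. Of all genes 0.0973%, 0.0229%, 0.103%, 0.515% and 0.0229% were called in these fits, in that order. Differences between replicates 1 and 2 within a compound were correlated with those within DMSO over 8734 genes. Pearson's r was -0.03, -0.01 and 0.02, with MS8815 first and MS8815N last. These values show no pairing by number, but cannot exclude one. The block changed MS8815 over DMSO from 53 to 54 nuclear calls and from 8782 to 8694 calls over all genes. Calls over all genes went from 98 to 353 in MS8815N over DMSO, and from 6 to 10 in EPZ-6438 over DMSO. The MS8815 libraries were the shallowest.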
